A study of Mus musculus with 22 samples.

Results

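The endothelin system genes were examined in astrocytes of the mouse optic nerve after an elevation of intraocular pressure. They are the 3 ligand genes Edn1, Edn2 and Edn3, the 2 receptor genes Ednra and Ednrb, and the 2 converting enzyme genes Ece1 and Ece2, picked by gene symbol as 7 of the 29367 genes in the count table. All mice were Rpl22 HA/HA Cre+ animals, bred from B6J.129(Cg)-Rpl22tm1.1Psam/SjJ ribotag mice and from B6.Cg-Tg (GFAP-Cre) 73.12Mvs mice (The Jackson Laboratory, suffix /J), and carried the genotype label WT. In this cross a mouse GFAP promoter drives Cre constitutively, so that every cell which has expressed Cre, and its descendants, carries a hemagglutinin (HA) tag on the ribosomal protein RPL22, and the mRNA bound to tagged ribosomes was collected with an anti-HA antibody. Adult mice received microbeads in an eye, which obstruct aqueous outflow, and tissue was taken 7 or 30 days later from the optic nerve head (ONH), the unmyelinated portion next to the eye, and from the adjoining myelinated optic nerve proper (ONP). A library came from the pooled tissue of 4 mice, 2 males and 2 females, with 4 libraries per region at 7 days and 7 per region at 30 days, 22 in all. All 4 groups were microbead injected, and no untreated samples were analysed here, so that the comparisons are between regions and between days and not between injured and uninjured nerves.

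Endothelins are small peptides that are cut from larger precursors, first by furin-type proprotein convertases and then by the endothelin converting enzymes ECE1 and ECE2. Endothelin-1, -2 and -3 act on 2 G protein-coupled receptors. The type A receptor (Ednra) prefers endothelin-1 and -2 and is typical of vascular smooth muscle, where it drives constriction, while the type B receptor (Ednrb) binds all 3 peptides and is abundant on astrocytes and endothelial cells. In the optic nerve the system is known for constricting vessels of the nerve head and for promoting astrocyte proliferation and reactivity, and it has long been studied in glaucoma.

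Ednrb and Edn3 were the members that were higher in the ONH than in the ONP at 30 days, and the 250 bases before their transcription start sites are shown for that reason, from RefSeq on GRCm38.p6, 5' to 3' on the strand of the gene. The Ednrb window is chr14:103843702-103843951 on the minus strand and lies within the span that GENCODE M21 gives the gene. The Edn3 window is chr2:174760369-174760618 on the plus strand and ends at the base before the gene. Capitals mark the E-box, the letters CANNTG, which reads the same pattern on both strands and was searched for as a common element of vertebrate promoters.
Ednrb: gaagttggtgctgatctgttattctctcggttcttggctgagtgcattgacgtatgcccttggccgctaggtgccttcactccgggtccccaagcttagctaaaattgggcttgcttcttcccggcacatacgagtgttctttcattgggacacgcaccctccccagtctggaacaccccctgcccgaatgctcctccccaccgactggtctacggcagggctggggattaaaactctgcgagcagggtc
Edn3: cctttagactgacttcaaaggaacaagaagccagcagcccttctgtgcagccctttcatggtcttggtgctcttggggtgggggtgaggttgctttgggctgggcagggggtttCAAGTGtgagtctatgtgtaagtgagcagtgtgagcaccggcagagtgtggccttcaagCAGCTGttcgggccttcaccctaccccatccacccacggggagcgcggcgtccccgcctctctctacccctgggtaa
The Edn3 window held 2 E-boxes, starting 136 and 77 bases before the transcription start, and the Ednrb window held none. Of 32851 such mouse windows 66.2% held at least 1, and the GC content of 59.2% (Edn3) and 56.8% (Ednrb) compared with a median of 52.4%. These matches describe letters only, and no binding was measured.

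At 30 days the mRNA of Ednrb, the astrocyte endothelin receptor, was 1.96-fold higher in the ONH than in the ONP, and that of Edn3, the gene of endothelin-3, was 3.96-fold higher, while Ece1, the gene of the main converting enzyme, was at 0.428 of the ONP level. At 7 days Edn3 alone of the 6 genes tested passed the test, at 5.72-fold higher in the ONH. Of all genes tested, 41.8% passed it between regions at 30 days and 13.2% at 7 days. Between 7 and 30 days no member passed it in either region, beside 0% of all genes in the ONH and 17% in the ONP. Ednrb was far more abundant than every other member in all 22 libraries, Edn1 and Ednra were low, and Edn2 was close to absent. The 30 day difference of Ednrb passed the test in all 10 alternatives and whichever library was left out. That of Edn3 lost its call when any 1 of 6 of the 14 libraries was left out, 2 of the ONH and 4 of the ONP. The 7 day call of Edn3 held in 2 of 8 fits that left out a library and in 6 of 9 alternatives.

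Libraries held 16292489 to 33307092 counts, and levels are given as CPM, the counts of a library scaled to a common total after normalization of all 22 libraries together. An amount of 3 counts, which a count of 0 still allows, came to between 0.0901 and 0.184 CPM. All 9 astrocyte markers examined, Gfap and Aqp4 among them, were detected in each group, and their sum was 14500 to 33500 CPM over the libraries. The sum over 6 oligodendrocyte markers, which include the myelin gene Mbp, was 13200 to 105000 CPM, so RNA of other cells was present beside that of astrocytes. In such bulk samples, fewer cells of a type and less RNA per cell cannot be told apart.

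**Figure D1:**
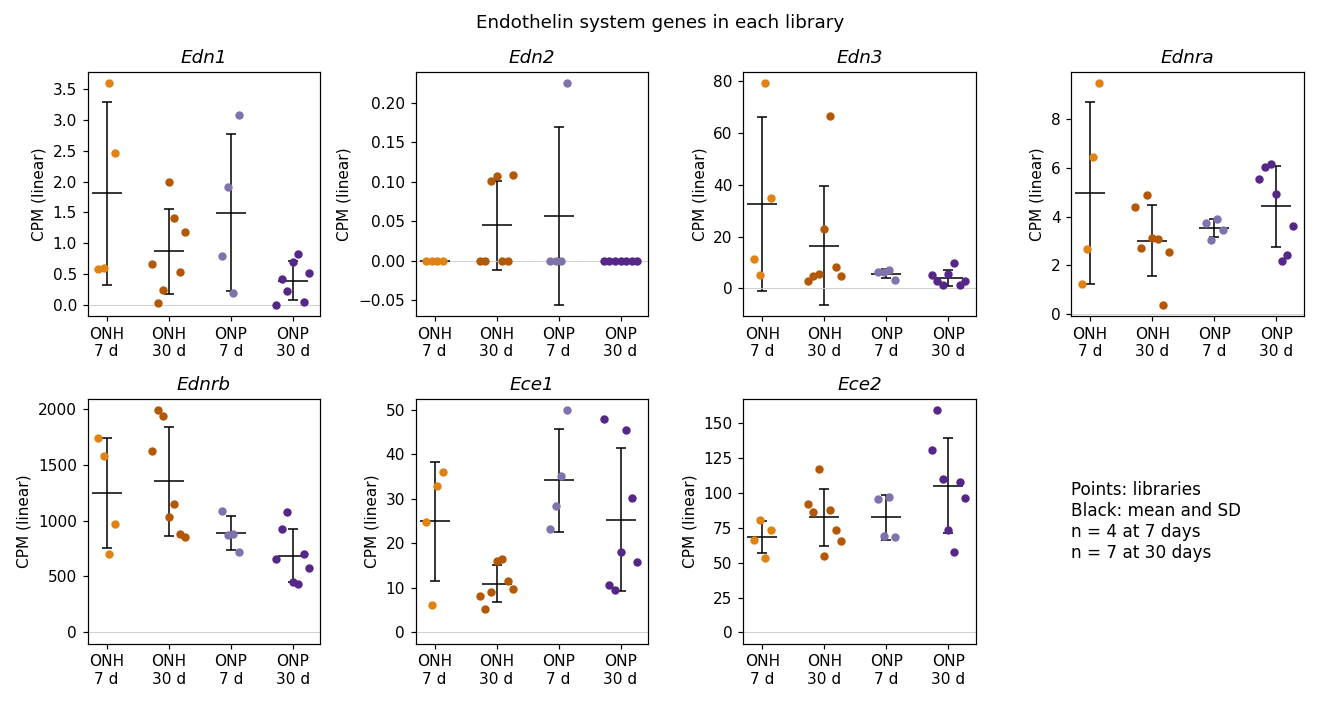
Level of each of the 7 genes in CPM on linear axes that differ between panels, with each library as a point and the mean and SD in black, for ONH and ONP at 7 days (n = 4) and 30 days (n = 7). Ednrb lies between 430 and 1985 CPM, while Edn2 does not exceed 0.225 CPM, and the single high ONH library of Edn3 at 30 days is at 66.3 CPM.

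Among the ligands, Edn3 (chromosome 2, 174760619 to 174784042, plus strand, GRCm38) had the highest mean level per kilobase of exon in each group. In the 4 ONH libraries at 7 days it measured 11.3, 5.29, 79.2 and 34.9 CPM, for the libraries that the count table numbers 1, 3, 5 and 6. In the 4 ONP libraries of that day, numbered 1, 2, 5 and 6, it measured 6.50, 6.18, 7.02 and 3.34 CPM. The ONP libraries were thus close together, whereas the ONH libraries spread over a 15.0-fold range whose lowest value lay among those of the ONP. In ONP library 6 Edn3 lay below Edn1 per kilobase of exon, at 0.811 against 1.437 CPM.

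At 30 days Edn3 in the ONH ranged from 3.06 to 66.3 CPM with a median of 5.53, and in the ONP from 1.17 to 9.99 CPM with a median of 2.999. The mean of 16.5 ± 23.0 CPM in the ONH (SD, n = 7) was therefore carried by few libraries, with replicate 5 at 66.3 and the next, replicate 4, at 22.9 CPM. Both regions of a pool came from the same mice, and ONH and ONP libraries of the same replicate number were assumed to be of the same pool, which no source states outright. In these pairs the ONH was higher in 6 of 7, with a median ratio of 3.97 and a range of 0.597 to 6.74.

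The edgeR quasi-likelihood test, adjusted by Benjamini-Hochberg across the whole table of tested genes, gave Edn3 a log2 fold change (log2FC) of 1.98 at 30 days (ONH over ONP, SE 0.698, 95% interval 0.51 to 3.46, adjusted p = 0.0317). At 7 days the log2FC was 2.52 (SE 0.703, interval 0.96 to 4.07, edgeR adjusted p = 0.0397). Without ONH replicate 5 the 30 day value became 0.98 and the edgeR adjusted p 0.166, and the call was also lost without ONH replicate 4 or ONP replicate 2, 3, 6 or 7, with edgeR adjusted p from 0.0533 to 0.0598. At 7 days it held in 2 of 8 such fits: without ONH library 5 the log2FC was 1.58 (edgeR adjusted p = 0.115), and the call also ended without ONH library 6 and without each of the 4 ONP libraries, the largest adjusted p being 0.117.

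The ONH libraries with much Edn3 were also rich in RNA of several other cell types. All 5 of 5 melanocyte markers, pigment cell genes such as Dct, Pmel and Mlana, were higher in the ONH on both days by the edgeR test, and their summed level was 72.1 to 557 CPM in the ONH at 30 days and 121 to 797 CPM at 7 days, against 3.28 to 6.56 and 2.55 to 6.44 CPM in the ONP. The 4 ONH libraries highest in Edn3 were, in another order, the 4 highest in the melanocyte sum and in the sum over 11 endothelial markers. These were library 5 at 7 days, replicate 5 at 30 days, library 6 at 7 days and replicate 4 at 30 days, with endothelial sums of 460, 142, 381 and 116 CPM, where the other ONH libraries had 37.1 to 108 CPM.

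Of the endothelial markers 3 of 10 tested were higher in the ONH at 30 days and 1 of 11 at 7 days, beside 21.8% and 6.34% of all genes. In the ONP the endothelial sum was 14.9 to 108 CPM at 30 days and 135 to 166 CPM at 7 days. No marker of either list was at 0 in all libraries of a group. The same 4 ONH libraries were the highest in the sum over 5 photoreceptor markers, at 254 to 2950 CPM against 75.3 to 168 CPM in the other ONH libraries and 1.68 to 73.9 CPM in the ONP, and 5 of 5 of these markers were higher in the ONH at 30 days and 4 of 5 at 7 days. Of 5 retinal pigment epithelium markers 4 were higher in the ONH on each day, with sums of 230 to 977 CPM in the ONH and 75.5 to 139 CPM in the ONP. In this sum replicate 5 at 30 days, which ranked 2 in Edn3, ranked 9 of the 11 ONH libraries, at 305 CPM. It ranked 6 in the sum over 10 mural cell markers, at 576 CPM. Not every high ratio lay in the 4 ONH libraries highest in Edn3, since the ratios of pairs 3 and 6 at 30 days were 4.71 and 6.74. The part of these cells in the Edn3 level was not tested.

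**Figure D2:**
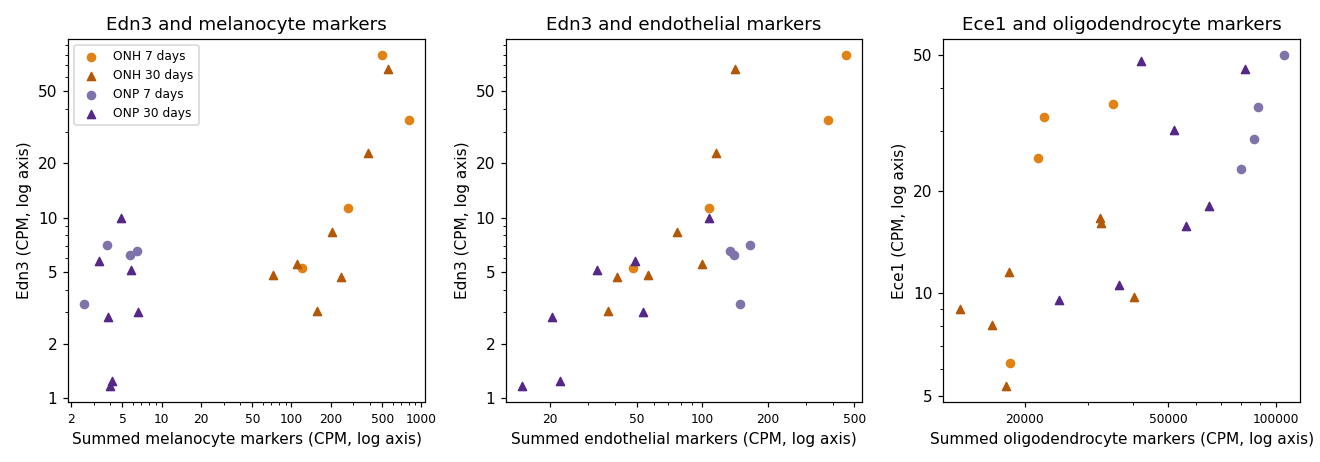
Edn3 against the summed melanocyte markers (left) and endothelial markers (middle), and Ece1 against the summed oligodendrocyte markers (right), in CPM on log axes, with each of the 22 libraries as a point. The 4 highest Edn3 values, 22.9 to 79.2 CPM, lie at the right of the ONH points in the left and middle panels, and the oligodendrocyte sum is 13200 to 40200 CPM in the ONH and 24900 to 105000 CPM in the ONP.

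Edn1 (chromosome 13, 42301476 to 42307990, plus strand) encodes endothelin-1, the strongest constrictor of the family and a peptide best known from endothelial cells. Its highest count in a library was 82, at 3.07 CPM, in ONP library 6 at 7 days. At 7 days it measured 0.593, 0.598, 3.59 and 2.47 CPM in the ONH libraries and 0.797, 1.91, 0.205 and 3.07 CPM in those of the ONP. At 30 days it ranged from 0.0432 to 1.99 CPM in the ONH (median 0.674) and from 0 to 0.828 CPM in the ONP (median 0.429). All groups overlapped, and within each the SD was 79.2% to 84.7% of the mean.

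No comparison called Edn1 by the edgeR test. Its level at 30 days relative to 7 days had a log2FC of -1.94 in the ONP (SE 0.834, 95% interval -3.75 to -0.14, unadjusted p = 0.0372, edgeR adjusted p = 0.127) and of -1.08 in the ONH (interval -2.80 to 0.65, edgeR adjusted p = 0.558). The sum of the endothelial markers was 14.9 to 108 CPM in the ONP at 30 days and 135 to 166 CPM at 7 days, and its part in the Edn1 values was not tested. ONH over ONP gave 1.13 at 30 days and 0.28 at 7 days, with edgeR adjusted p of 0.231 and 0.865.

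Edn2 (chromosome 4, 120161206 to 120167360, plus strand), the gene of endothelin-2, had 12 counts in total and was at 0 in 18 of 22 libraries, which allows up to 0.0901 to 0.184 CPM depending on the library. It exceeded 3 counts in 1 library, ONP library 6 at 7 days, with 6 counts or 0.225 CPM. It was too low to be tested, and a difference between groups was not detectable at this depth.

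Ednrb (chromosome 14, 103814625 to 103844402, minus strand) was the member with by far the highest level. At 30 days it ranged from 855.5 to 1985 CPM in the ONH with a median of 1150, and from 430 to 1073 CPM in the ONP with a median of 659. The means were 1349 ± 488 and 687 ± 239 CPM (SD, n = 7 each). The ranges overlapped, since ONP replicate 3 lay above 3 ONH libraries, but within the assumed pairs the ONH was higher in 7 of 7, with ratios from 1.24 to 2.67 and a median of 2.16.

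The log2FC of Ednrb at 30 days was 0.97 (ONH over ONP, SE 0.252, 95% interval 0.44 to 1.51, edgeR adjusted p = 0.00595). It stayed below an adjusted p of 0.05 in 10 of 10 alternative analyses and in 14 of 14 fits that left out a library, where the edgeR adjusted p was 0.00277 to 0.0142. With the pair as a block the value was 0.96 (SE 0.138, edgeR adjusted p = 0.000273).

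At 7 days Ednrb measured 1738, 1574, 699.6 and 970 CPM in the ONH libraries and 1082, 874, 878 and 717 CPM in those of the ONP. ONH libraries 1 and 3 lay above all ONP libraries and library 5 below them. The log2FC was 0.51 (interval -0.10 to 1.12, edgeR adjusted p = 0.249), so a difference of the size seen at 30 days was neither shown nor excluded by the interval. Over time Ednrb had a log2FC of 0.09 in the ONH (30 over 7 days, interval -0.56 to 0.74) and of -0.40 in the ONP (interval -0.91 to 0.11), with edgeR adjusted p of 0.914 and 0.256. The change in the ONP minus that in the ONH was -0.49 (edgeR adjusted p = 0.683), so the region difference was not shown to change with time.

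Per kilobase of exon, Ednrb stood at rank 124 of 16734 genes in the ONH at 30 days, 131 in the ONH at 7 days, 173 in the ONP at 7 days and 236 in the ONP at 30 days. Over the 22 libraries the genes most like it in log2 CPM were Slc1a3, which encodes the astrocyte glutamate transporter GLAST (Pearson's r = 0.969), Gfra2, a receptor subunit for neurturin (0.966), and Sema3b, a secreted semaphorin (0.938). After each group's mean was subtracted the highest reported here were Slc1a3 (0.979) and Pamr1 (0.959). The values of a library share its depth and its makeup of cells, and these were the highest of 16747 genes, so that they describe the libraries only. Slc1a3 itself had a log2FC of 0.66 between ONH and ONP at 30 days (edgeR adjusted p = 0.0555). The summed astrocyte markers were 16800 to 27100 CPM in the ONH and 15000 to 33500 CPM in the ONP at 30 days, with 1 of 9 higher in the ONH (S100b) and 3 lower (Aqp4, Slc1a2 and Gfap), and the median of the sum was 20400 CPM in the ONH and 28600 CPM in the ONP. Melanocytes and endothelial cells also make the type B receptor. The 4 ONH libraries with the highest melanocyte and endothelial sums had 699.6 to 1150 CPM of Ednrb, and the other 7 ONH libraries had 855.5 to 1985 CPM. The part of these cells in the Ednrb difference was not tested.

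**Figure D3:**
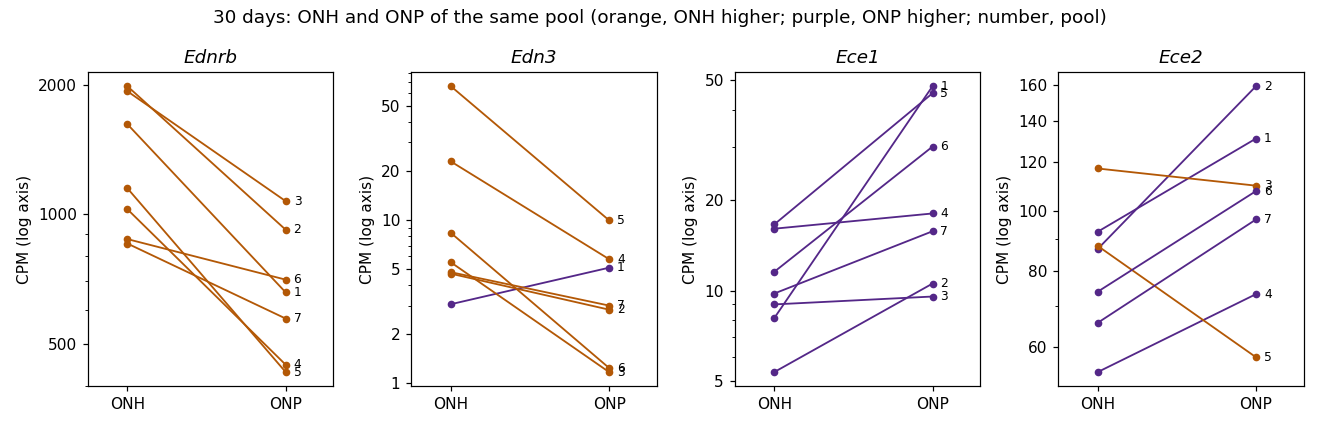
Levels of Ednrb, Edn3, Ece1 and Ece2 in CPM on log axes in the ONH and ONP libraries at 30 days, with a line for each of the 7 pools, matched by replicate number. Ednrb is higher in the ONH in 7 of 7 pools and Edn3 in 6 of 7, Ece1 is lower in the ONH in 7 of 7, and Ece2 is higher in the ONH in 2 of 7.

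Ednra (chromosome 8, 77663031 to 77724464, minus strand), the constrictor receptor of smooth muscle, was low throughout. At 30 days it ranged from 0.362 to 4.87 CPM in the ONH (median 3.09) and from 2.19 to 6.14 CPM in the ONP (median 4.94). At 7 days it measured 1.24, 2.66, 6.45 and 9.48 CPM in the ONH libraries and 3.74, 3.06, 3.9 and 3.45 CPM in those of the ONP. The ONH libraries 5 and 6 with the highest values at 7 days also had the highest sums over 10 mural cell markers among the ONH libraries on that day. These were 1090 and 1420 CPM, against 778 and 575 CPM in libraries 1 and 3. At 30 days the mural sum was 329 to 873 CPM in the ONH and 250 to 455 CPM in the ONP, whereas the Ednra median was lower in the ONH. The mural markers were mixed, with a median log2FC of -0.25 between ONH and ONP at 30 days. Of 9 tested, 3 were higher in the ONH by the edgeR test and 1, Pdgfrb, was lower (8.18 against 17.8 CPM), beside 21.8% and 20% of all genes. The part of these cells in the Ednra levels was not tested.

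The log2FC of Ednra between ONH and ONP was -0.55 at 30 days (95% interval -1.42 to 0.32, edgeR adjusted p = 0.303) and 0.50 at 7 days (interval -0.78 to 1.77, edgeR adjusted p = 0.611), neither beyond the spread between libraries. The test of whether the day effect differed between regions gave 1.03 (interval -0.44 to 2.51, edgeR adjusted p = 0.593). Per kilobase, Ednrb exceeded Ednra by a median factor of 478 in the ONH at 30 days, 449 in the ONH at 7 days, 328 in the ONP at 7 days and 204 in the ONP at 30 days. Its pattern over the 22 libraries was less like that of any other gene than was the case for Ednrb, with Atp5a1, a subunit of ATP synthase, at the top (r = 0.766), and with Nprl3 at 0.725. With group means subtracted the highest were Plpp1 (0.85), Zfp551 (0.824) and Ttc25 (0.812). An antisense transcript, 4933431K23Rik, shares 91 exon bases with Ednra.

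Ece1 (chromosome 4, 137862237 to 137965229, plus strand) went the opposite way to Ednrb and Edn3. At 30 days it ranged from 5.35 to 16.6 CPM in the ONH with a median of 9.77, and from 9.55 to 47.9 CPM in the ONP with a median of 18.05. The means were 10.9 ± 4.14 and 25.3 ± 16.0 CPM (SD, n = 7 each). The ranges overlapped, but the ONH was lower in 7 of 7 pairs, at 0.169 to 0.941 of the ONP level with a median of 0.507.

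The log2FC of Ece1 at 30 days was -1.22 (ONH over ONP, SE 0.375, 95% interval -2.02 to -0.43, edgeR adjusted p = 0.0159). It kept an edgeR adjusted p of 0.007 to 0.0415 in 14 of 14 fits without a library and passed in 9 of 10 alternatives, the exception being limma-voom with sample quality weights (log2FC -1.03, adjusted p = 0.0744). Oligodendrocyte markers moved the same way, with 5 of 6 lower in the ONH at 30 days and 6 of 6 at 7 days. Their sum was 13200 to 40200 CPM in the ONH and 24900 to 81700 CPM in the ONP at 30 days, and 18200 to 35100 CPM against 79800 to 105000 CPM at 7 days, with no marker at 0 in all libraries of a group. Within the ONH, replicate 7 at 30 days had the largest oligodendrocyte sum, 40200 CPM, with 9.77 CPM of Ece1. The 5 ONH libraries highest in Ece1 were, in another order, the 5 highest in the endothelial and in the melanocyte sum. Between regions, 3 of 10 endothelial and 5 of 5 melanocyte markers were higher in the ONH at 30 days, beside 21.8% of all genes, where Ece1 was lower. The part of any of these cells in the Ece1 levels was not tested.

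At 7 days Ece1 measured 24.9, 6.25, 32.9 and 36.0 CPM in the ONH libraries and 23.2, 28.4, 35.2 and 49.9 CPM in those of the ONP. Apart from ONH library 3, the values of both regions lay in a common range, and the log2FC was -0.44 (interval -1.43 to 0.56, edgeR adjusted p = 0.563). In the ONH the level at 30 days relative to 7 days gave -1.22 (interval -2.08 to -0.36, unadjusted p = 0.00901, edgeR adjusted p = 0.236), and in the ONP -0.46 (edgeR adjusted p = 0.499). The difference between these changes was 0.76 (interval -0.55 to 2.07, edgeR adjusted p = 0.684).

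The genes most like Ece1 were Tmem98 (r = 0.812), St8sia4, a polysialyltransferase (0.81), and Gsn, the actin-severing protein gelsolin (0.808). With group means subtracted they were Cd300lg (0.803), Igfbp4 (0.79) and Pla1a (0.79). For Edn3 they were Cygb, which encodes cytoglobin (0.877), Tmem51 (0.867) and Tmem88 (0.866), and with group means subtracted Pgf, the placental growth factor gene (0.894), Cygb (0.883) and Cldn5, the tight junction gene of endothelial cells that is among the endothelial markers above (0.876).

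Ece2 (chromosome 16, 20629828 to 20646485, plus strand), the converting enzyme that works at acidic pH, was the second most abundant member by the mean of each group. It ranged from 54.7 to 117 CPM in the ONH (median 86.7) and from 57.8 to 160 CPM in the ONP (median 107.7) at 30 days. At 7 days it measured 66.2, 80.6, 53.5 and 73.7 CPM in the ONH libraries and 95.8, 69.0, 97.4 and 68.7 CPM in those of the ONP. The groups overlapped in each comparison, and no call was made: the log2FC of ONH over ONP was -0.35 at 30 days (interval -0.80 to 0.09, edgeR adjusted p = 0.191) and -0.25 at 7 days (interval -0.68 to 0.18, edgeR adjusted p = 0.431).

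Over time Ece2 gave 0.24 in the ONH and 0.32 in the ONP (30 over 7 days, edgeR adjusted p = 0.598 and 0.38). Ece2 shares 2937 exon bases with Gm49333 on the same strand, so its counts are uncertain to that extent, but it received 95.9% to 100% of the counts of both in each library, and the calls did not change when both were summed. The genes most like it were Gpr37l1, a receptor enriched in astrocytes (r = 0.893), Slc38a1, a glutamine transporter (0.859), and Angpt1 (0.842), and with group means subtracted Cap2 (0.923), Ccdc8 (0.885) and Gpr37l1 (0.871).

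In order of mean CPM per kilobase, Ednrb came first and Ece2 next in each group, and their ranges never overlapped. The range of Ece2 overlapped that of Edn3 in the ONH on both days. In ONH library 5 at 7 days Edn3, at 19.25, exceeded Ece2, at 10.47. In the ONH Edn3 followed at 4.02 (30 days) and 7.94 (7 days), ahead of Ece1 at 2.06 and 4.72, but the ranges of these overlapped. In the ONP the order was turned, with Ece1 at 4.78 (30 days) and 6.44 (7 days) ahead of Edn3 at 1.01 and 1.40, without overlap at 7 days and with overlap at 30 days. Ednra and Edn1 came after them, overlapping each other except in the ONP at 30 days, and Edn2 was last, with values up to 0.154 per kilobase.

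For all members together, 6 of the 7 were tested in each comparison. Between ONH and ONP at 30 days 2 were higher and 1 was lower in the ONH by the edgeR test, beside 41.8% of all 15133 genes tested (21.8% higher and 20% lower), so the share of members called was close to that of the genes at large. Their median log2FC was 0.31, beside -0.005 over all genes. At 7 days 1 was higher, beside 13.2% of 14752 genes (6.34% higher), with a median of 0.39 beside 0.07.

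From 7 to 30 days 0 of 6 were called in the ONH, where edgeR called 0% of 15668 genes. At an unadjusted p under 0.05 there was 1 member (Ece1) beside 13.9% of genes, and DESeq2, which called 446 genes or 2.48%, called 0 members. In the ONP 0 of 6 were called by edgeR beside 17% of 15491 genes, with 1 member (Edn1) at an unadjusted p under 0.05 beside 32.6% of genes, and 0 by DESeq2 beside 20.2%. The median over the members was -0.87 in the ONH and -0.43 in the ONP, beside -0.02 and -0.008 over all genes. The region by day interaction called 0 of 6 by edgeR, with 0 at an unadjusted p under 0.05 and 0 by DESeq2, beside 0.543%, 12.6% and 2.28% of genes. The libraries of the groups compared overlapped for each member in all 4 comparisons of groups, whereas they did not overlap for 16.3% of all genes between ONH and ONP at 30 days, 21.7% at 7 days, 2.28% over time in the ONH and 12% in the ONP.

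**Figure D4:**
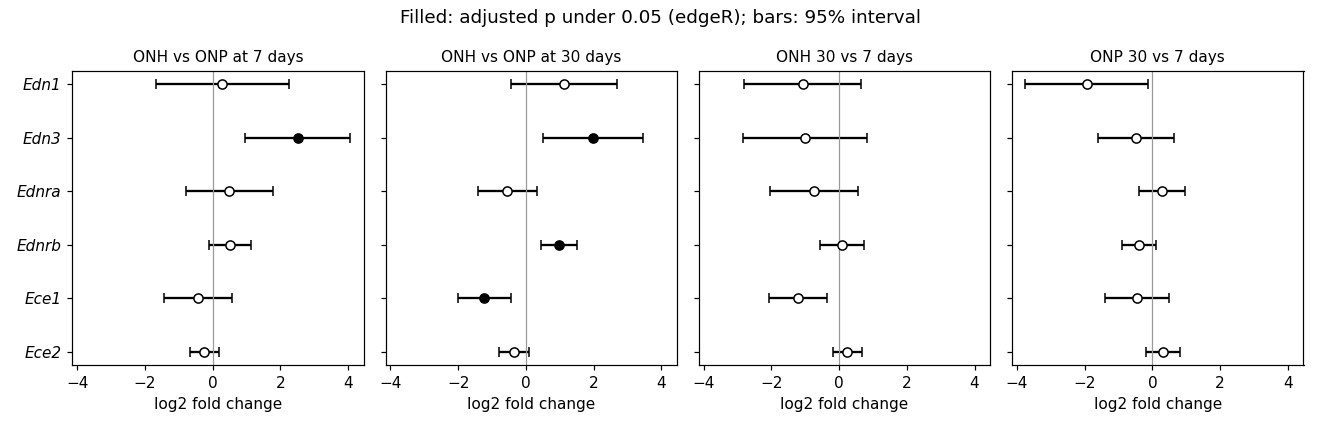
Log2 fold change with its 95% interval for the 6 tested genes in each of the 4 comparisons, with filled points where the edgeR adjusted p was under 0.05. Edn3, Ednrb and Ece1 are filled for ONH vs ONP at 30 days and Edn3 for ONH vs ONP at 7 days, while both comparisons of 30 vs 7 days hold open points only.

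Other genes of the pathway were taken from lists. Of 9 genes for endothelin processing and clearance, 6 were tested between regions on each day. At 30 days 1 was higher in the ONH, Ecel1 (28.3 against 0.839 CPM, log2FC 5.05, edgeR adjusted p = 5.32e-06), a protease related to ECE1 by sequence that is not known to process endothelins. The lower ones were the proprotein convertases Pcsk6 (9.56 against 20.9 CPM, -1.13, edgeR adjusted p = 0.00337) and Pcsk7 (7.52 against 14.4 CPM, -0.94, edgeR adjusted p = 0.00449). At 7 days Ecel1 was again higher (4.22, edgeR adjusted p = 0.00141) and Pcsk6 lower (-1.33, edgeR adjusted p = 0.00916). None was called between days in either region, beside 0% of all genes in the ONH and 17% in the ONP. The counts between regions compare with 41.8% of all genes tested at 30 days and 13.2% at 7 days. The median log2FC between regions was -0.24 and -0.35, beside -0.005 and 0.07 over all genes.

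Of 30 genes for signalling below the receptors, all tested, 6 were higher and 6 lower in the ONH at 30 days, with a median log2FC of -0.02. Of all genes 21.8% were higher and 20% lower in that comparison, so the list did not stand out by its count. The smallest adjusted p were those of Gnai1, an inhibitory G protein subunit (85.5 against 286 CPM, log2FC -1.74), Plcb4, a phospholipase C (13.2 against 4.00 CPM, 1.72), Rock1, a kinase of the cytoskeleton (69.0 against 47.9 CPM, 0.52), and Plcb1 (7.53 against 16.9 CPM, -1.17), with edgeR adjusted p of 8.79e-05, 0.000129, 0.000198 and 0.000861. The 2 phospholipases thus differed in opposite directions. At 7 days 2 were higher (Plcb4 at 1.57 and the calcium release channel gene Itpr1 at 1.22) and 1 lower (Gnai1 at -1.74), with edgeR adjusted p of 0.024, 0.0273 and 0.00175, beside 13.2% of all genes. In the ONP 2 genes rose from 7 to 30 days and 2 fell, among them Rock1 (-0.66) and the calcium release channel gene Itpr2 (-0.91), with edgeR adjusted p of 0.000701 and 0.00102, beside 17% of all genes. In the ONH none was called between days, beside 0% of all genes. The interaction called 1 of 30, the receptor kinase gene Grk6 (1.92, edgeR adjusted p = 0.0388), beside 0.543% of all genes.

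Of 16 genes on which endothelins are known to act in astrocytes, 12 were tested between regions. At 30 days 4 were higher and 3 lower in the ONH, with a median log2FC of 0.10, beside 41.8% of all genes called and a median of -0.005. They included the cell cycle gene Ccnd1 (645 against 205 CPM, log2FC 1.65), the protease inhibitor Timp1 (22 against 6.47 CPM, 1.76) and the angiogenic factor Vegfa (22 against 11 CPM, 0.98) above, and the matrix protease Mmp2 (9.88 against 21 CPM, -1.09) below, with edgeR adjusted p of 4.37e-06, 0.000748, 0.0018 and 0.0121. At 7 days Ccnd1 (1.10) and Timp1 (1.40) were higher and the glutamate transporter Slc1a2 (-0.70) lower, with edgeR adjusted p of 0.00523, 0.0105 and 0.0373, beside 13.2% of all genes. In the ONP Jun fell from 7 to 30 days (-0.64, edgeR adjusted p = 0.0255), where 17% of all genes were called. In the ONH none of the list was called, beside 0% of all genes. Whether any of these differences went with endothelin signalling was not measured.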

How the data were processed

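Pooled ONH and ONP tissue gave 22 ribotag libraries (Smart-Seq HT kit). The authors deposited estimated counts per gene as whole numbers, which the submitters' processing notes credit to STAR 2.6.1d and Salmon 0.14.2 on mm10. The authors also deposited log2 values from the variance stabilizing transformation of DESeq2 1.34.0. The 7 day columns carry other numbers than the sample labels, so they were assigned to a group only and never paired. Whether counting used the read strand is not given in the sources used here.

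Counts were analysed in R 4.3.3 with edgeR 4.0.16 (filterByExpr by group, TMM, quasi-likelihood test, Benjamini-Hochberg adjustment, threshold 0.05, no fold cutoff). A comparison used the libraries of the groups compared, and the interaction used all 4 groups. CPM used TMM over all 22 libraries, and per-kilobase levels divided by the exons of GENCODE M21 (GRCm38). Likeness was Pearson's r of log2 CPM (prior count 2) for members with a median of at least 1 CPM. At most 4 genes per list and comparison are named, those with the smallest adjusted p, and some genes that these rules select are not reported here. The test was checked on simulated counts. Alternatives were DESeq2 1.42.0, limma 3.58.1 on voom and on the deposited log2 values, other normalizations and filters, a single fit of 4 groups, and leaving out each library.

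ONH and ONP libraries of a number at 30 days were assumed to be pairs because the methods state that both regions came from the same mice. Their deviations from the group means correlated at 0.077 to 0.471. Libraries of unlike numbers were not correlated, so these values do not show whether the pairing is right. No files of a group held identical values, and pairs of replicates differed by at least 19.5 in chi-square per gene. The members and lists were chosen with earlier results of these data known. The floor of 3 counts covers counting error only, and p-values measure the spread between pools.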

Additional observations from a re-analysis of the deposited data

Results flagged for a closer look

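Of 28 combinations of gene and group examined, a library stood apart from the others of its group in 2, by the ratio of its gap to the group's range. Chance sets apart about 1 in 20 groups of normally distributed values, which these CPM need not be. The first was Edn3 in ONH replicate 5 at 30 days, at 66.33 CPM where the next library had 22.9 CPM, a gap of 0.686 of the range. Without this library the difference between ONH and ONP at 30 days was 0.98 (edgeR adjusted p = 0.166). The second was Edn2 in ONP library 6 at 7 days, at 0.225 CPM, which is 6 counts, where the other 3 libraries had 0. With the others at 0, any value above 0 is set apart by this ratio.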

How the results depend on the processing

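Leaving out a library gave 2 to 3 members called between ONH and ONP at 30 days and 0 to 1 at 7 days. At 7 days the count was 0 with limma-voom, with limma on the deposited log2 values and with 4 groups in a single fit, where Edn3 had log2FC of 1.5, 1.68 and 2.50 (adjusted p = 0.133, 0.0985 and 0.0532), beside a range of 0.00137 to 0.133 over 9 alternatives. At 30 days Edn3 was lost with limma on the deposited log2 values (1.15, adjusted p = 0.0874) and Ece1 with limma-voom (-1.03, adjusted p = 0.0744). With the replicate block of the 30 day pairs 3 members were called, as without it, and 6717 of all genes, with Edn3 at 1.499 and Ece1 at -1.05 (edgeR adjusted p = 0.0107 and 0.00945), and the block in the interaction (limma-voom) called 0 members and 161 genes. The block changed no call of a member. No block was fitted for the other comparisons, since the days came from different mice and the 7 day columns, numbered 1, 3, 5 and 6 (ONH) and 1, 2, 5 and 6 (ONP), could be matched to a group but not to a labelled replicate.

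Signs that turned belong to differences that passed no test. Ednrb in the ONH over time ranged from -0.11 to 0.30 with a library left out (-0.03, -0.04 and -0.01 among them). At 7 days Edn1 ranged from -0.30 to 0.91 (-0.09 among them), and Ednra from -0.035 to 0.81 and stood at -0.079 with limma-voom. In the interaction Edn3 ranged from -0.41 to 1.55 and stood at -0.37 with limma-voom, and Ece2 ranged from -0.029 to 0.22 (-0.01 among them). The causes were not tested.

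Counts over all genes moved by more than 1.5 times as follows. ONH over time went from 0 to 446 (DESeq2), 292 (single fit), 2 (no filter) and 1 (deposited log2 values), ONP over time from 2638 to 1189 (single fit), ONH vs ONP at 7 days from 1940 to 3203 (DESeq2) and 3785 (single fit), and the interaction from 91 to 409 (DESeq2), 55 (limma-voom) and 50 (no filter). With a library left out, they were up to 167 in the ONH over time (without library 5 at 7 days), down to 1439 in the ONP over time (without library 6 at 7 days), down to 1102 between regions at 7 days (without ONP library 6; 1147 without 2 and 1173 without 5), and 22 to 318 in the interaction, where 22 came without ONP library 1, 2 or 6 and 318 without ONH library 5 at 7 days. Dividing by the longest transcript moved 8 of 28 per-kilobase levels. Depth limits Edn1 and Edn2, whose counts did not exceed 82 and 6 in a library.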

Other observations

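Among 28 genes of other vasoactive systems, 16 were tested between ONH and ONP at 30 days, and 4 were higher and 8 lower in the ONH, with a median log2FC of -0.56 beside -0.005 over all genes, of which 21.8% were higher and 20% lower. Adm, the gene of the dilator adrenomedullin (29.7 against 7.07 CPM, log2FC 2.07), and Nppc, that of C-type natriuretic peptide (24.9 against 12.4 CPM, 1.001), were higher. Agt, which encodes angiotensinogen and was the most abundant of the named genes (518 against 1500 CPM, -1.54), and Gucy1a1, a subunit of the nitric oxide receptor (4.60 against 13.3 CPM, -1.53), were lower. The edgeR adjusted p of these were 4.68e-06, 7.85e-05, 0.000136 and 0.000267.

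At 7 days 2 of 17 were higher in the ONH (Adm at 1.5 and Nppc at 1.72) and 2 lower (Agt at -1.52 and Calcrl, the receptor for adrenomedullin, at -1.84), with edgeR adjusted p of 0.00459, 0.026, 0.0037 and 0.0303, beside 13.2% of all genes. In the ONP 2 of 19 rose from 7 to 30 days and 4 fell, beside 17% of all genes, with the smallest adjusted p for the nitric oxide synthase genes Nos3 (15.3 to 4.50 CPM, -1.79) and Nos1 (1.07 to 0.109 CPM, -3.23), for Adm (18.7 to 7.07 CPM, -1.43) and for Ramp1, an accessory protein of Calcrl (105 to 277 CPM, 1.36), at edgeR adjusted p of 0.00247, 0.00305, 0.00268 and 0.0034. Endothelial markers fell in the ONP over the same time, 6 of 10 by the edgeR test, and their part in these values was not tested. In the ONH none of these genes was called between days, nor by the interaction, beside 0% and 0.543% of all genes.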
